A study of Mus musculus with 8 samples.

Results

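NADPH oxidases are membrane enzymes that pass electrons from NADPH to oxygen and so make superoxide. The phagocyte enzyme holds a catalytic subunit (gp91phox, encoded by Cybb) and its membrane partner p22phox (Cyba), and it becomes active when cytosolic organizer and activator proteins and a Rac GTPase join it at the membrane. The NOX1 enzyme uses the same p22phox with its own organizer and activator, and it is best known from colon epithelium and vascular smooth muscle, whereas the gp91phox enzyme is the main source of the respiratory burst in macrophages and neutrophils.

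The genes described are the 9 oxidase subunits and GTPases whose symbols were looked up in the deposited count tables: Nox1, Cybb, Cyba, Ncf1, Ncf4, Noxo1, Noxa1, Rac1 and Rac2. All 9 were listed among 53735 genes, and 8 of them were among the 14418 genes with enough reads to be tested, since Noxa1 stayed below the filter on low counts. RNA-seq was made from bone marrow derived macrophages (BMDMs) of male mice aged 6 months on a C57BL/6J background, which were all Apoe-/- and all infused with angiotensin II (Ang II) at 1.44 mg/kg/day for 7 days by implanted minipump, and whose marrow was then cultured for 7 days. The labels also print the dose as 1 mg/kg/min, which is not the same rate, and the daily figure is the one given here. The 4 WT libraries were Mkl1+/+ and the 4 KO libraries were Mkl1-/- in every cell of the animal. Experiment 1 held WT libraries 1 and 2 and KO libraries 5 and 6, and experiment 2 held WT libraries 3 and 4 and KO libraries 7 and 8. No mice without Ang II are among these libraries, so every value describes genotype under Ang II, in Apoe-/- cells after culture. The labels do not say that each library came from a mouse of its own, so the p-values measure the spread between these libraries. With 2 libraries in a group, groups that do not overlap within an experiment often arise by chance. The share of all genes for which this held was not counted.

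Library totals ran from 33977799 to 41584540 counts, and levels are given as CPM, counts scaled to library size, with TMM factors set over the 8 libraries. Mkl1, the targeted gene, had 25.6 to 29.6 CPM in WT, 19.5 and 20.9 CPM in KO of experiment 1, and 14.6 and 10.4 CPM in KO of experiment 2. Its reads were thus fewer in KO and not absent. The 10 macrophage markers summed to between 16010 and 36480 CPM, of which Lyz2, encoding lysozyme, gave 7606 to 23940 CPM and Adgre1 1669 to 8328 CPM. F13a1, on the same list, had only 0 to 5.14 CPM, with no read in WT 4, and Mertk had 19.7 to 104 CPM. Neutrophil markers, which matter here because neutrophils are rich in the same oxidase, summed to between 2.40 and 13.7 CPM, with 7 of 11 at or under 3 counts in every library and Retnlg at 0 throughout. Fibroblast markers summed to 178 and 235 CPM in KO of experiment 1 and to between 2.18 and 12.1 CPM in the other 6 libraries, so KO of experiment 1 stood apart in this respect. Over all tested genes, WT of experiment 1 lay closest to KO of experiment 2, with an SD of the log2 difference of 0.41, while the other 5 pairs of groups were 0.84 to 0.98 apart. In this balanced design, an exchange of KO libraries between the experiments and a genotype effect that truly differs between them cannot be told apart, which bears on every value given within an experiment and on the interaction terms. In bulk RNA, fewer cells of a type and less RNA per cell cannot be told apart.

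Promoters are shown for 4 members whose reads differed with genotype, as sequences in which to look for the motifs named below. Each run is RefSeq sequence on GRCm38.p6, from 250 bases before to 50 bases after the annotated start, written 5′ to 3′ on the strand of the gene. Capitals mark matches on either strand to any of 5 motifs, which were the CArG box bound by serum response factor and its MKL1 cofactor, the PU.1 core GAGGAA, the NF-kB site, the AP-1 site TGANTCA and the interferon response element GAAANNGAA. Positions are counted from the annotated start, with the first base of the transcript as 1. The RefSeq starts of Nox1 and Cybb lie inside the longer GENCODE spans given with each gene below, so these windows are not at the ends of those spans.
Nox1, chrX:134111805-134112104, minus strand: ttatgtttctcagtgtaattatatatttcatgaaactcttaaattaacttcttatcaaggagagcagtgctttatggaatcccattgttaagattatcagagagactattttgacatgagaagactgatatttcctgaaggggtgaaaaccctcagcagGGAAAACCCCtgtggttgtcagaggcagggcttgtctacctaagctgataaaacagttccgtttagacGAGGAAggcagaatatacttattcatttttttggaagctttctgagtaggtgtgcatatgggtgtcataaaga
Cybb, chrX:9469275-9469574, minus strand: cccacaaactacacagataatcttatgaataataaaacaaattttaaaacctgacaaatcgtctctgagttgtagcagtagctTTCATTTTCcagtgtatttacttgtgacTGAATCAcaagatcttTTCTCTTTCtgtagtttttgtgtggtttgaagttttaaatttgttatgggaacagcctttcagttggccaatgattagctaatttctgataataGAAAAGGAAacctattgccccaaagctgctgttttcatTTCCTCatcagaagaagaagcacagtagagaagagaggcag
Ncf1, chr5:134229576-134229875, minus strand: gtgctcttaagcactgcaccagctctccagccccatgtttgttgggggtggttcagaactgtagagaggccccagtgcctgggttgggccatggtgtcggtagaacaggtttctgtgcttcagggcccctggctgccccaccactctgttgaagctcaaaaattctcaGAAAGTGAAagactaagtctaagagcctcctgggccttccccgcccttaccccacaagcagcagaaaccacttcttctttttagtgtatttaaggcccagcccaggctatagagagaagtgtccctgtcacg
Noxo1, chr17:24695984-24696283, plus strand: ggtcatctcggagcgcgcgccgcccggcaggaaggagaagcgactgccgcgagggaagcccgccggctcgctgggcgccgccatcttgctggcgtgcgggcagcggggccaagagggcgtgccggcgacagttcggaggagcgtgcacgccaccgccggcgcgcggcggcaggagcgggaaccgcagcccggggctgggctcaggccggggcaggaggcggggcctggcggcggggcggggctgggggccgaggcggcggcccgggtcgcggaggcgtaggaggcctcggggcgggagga

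The table of promoters held 6 of the 9 members. None of the 6 windows held a match to the CArG box, which 1.63% of all 32851 promoters of this length held. The window of Nox1 held an NF-kB site match from 91 to 82 bases before the start, a motif found in 8.46% of promoters, and a GAGGAA core from 23 to 18 bases before it, found in 28.3%. Cybb had 3 matches to GAAANNGAA, held by 8.56% of promoters, 1 to TGANTCA, held by 7.81%, and 1 to GAGGAA. Ncf1 had 1 match to GAAANNGAA, from 82 to 74 bases before the start, Noxa1 had an NF-kB site match from 249 to 240 bases before it, and the windows of Noxo1 and Cyba held none of the 5 motifs. No match overlapped a match to another motif. The window of Noxo1 was 80.3% G and C, against 38.0% for Nox1 and 35.3% for Cybb. Such matches describe letters in a window and are not measurements of binding.

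Nox1 encodes the catalytic subunit of the NOX1 enzyme. In GENCODE M21 on GRCm38 the gene spans chrX:134086421-134221956 on the minus strand. It had 66.0 and 46.4 CPM in WT of experiment 1 and 0.920 and 1.05 CPM in KO, from 2685 and 1580 reads against 34 and 42. In experiment 2 it had 52.1 and 41.8 CPM in WT and 8.03 and 5.18 CPM in KO, from 1900 and 1454 reads against 329 and 216. All 4 KO libraries lay far below all 4 WT libraries, and the WT libraries of the experiments overlapped, whereas KO of experiment 2 kept about 6.70 times the level of KO of experiment 1. In the quasi-likelihood test of edgeR, adjusted by Benjamini-Hochberg over all tested genes, Nox1 was 57.3-fold lower in KO in experiment 1 (log2 fold change -5.84, SE 0.26, adjusted p = 6.219e-05) and 7.11-fold lower in experiment 2 (-2.83, SE 0.26, adjusted p = 0.007787). The loss was smaller in experiment 2 by 3.00 on the log2 scale (interaction term, SE 0.38, adjusted p = 0.001225). Nox1 was the only member lower past the threshold in both experiments, which 2.25% of all tested genes were.

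**Figure D1:**
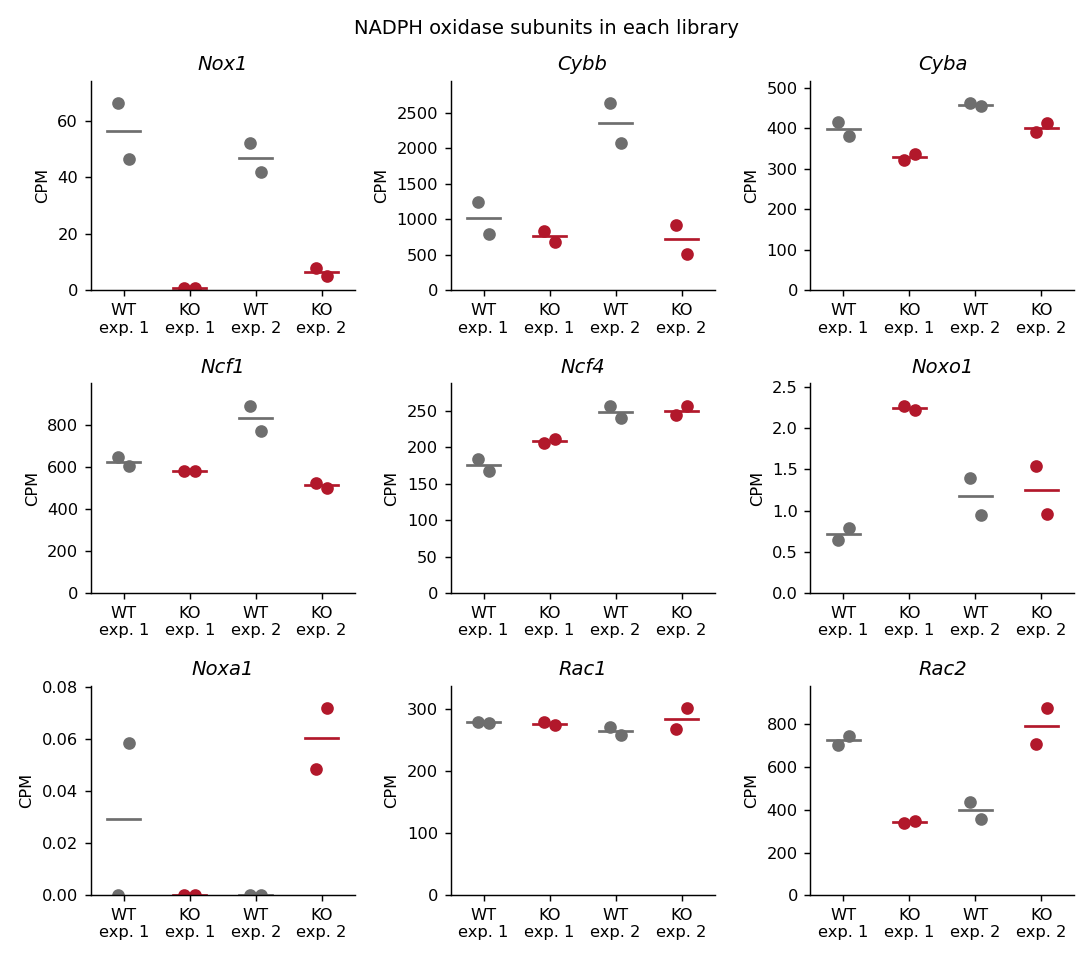
Level of each of the 9 genes in CPM (vertical axis, starting at 0) in WT (grey) and KO (red) of experiments 1 and 2. Points are single libraries and lines the means of 2. Nox1 fell to between 0.920 and 8.03 CPM in KO, Rac2 was lower in KO of experiment 1 and higher in KO of experiment 2, and Rac1 stayed between 257 and 300 CPM.

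Nox1 and Ncf1 are among the genes that the study displayed from these libraries, so their direction is not independent evidence. Exons of Nox1 overlap those of Cstf2 on the opposite strand by up to 399 bases, and whether strand was used in counting is not stated. Cstf2, which encodes a factor of mRNA 3′ end processing, had 43.4 to 124 CPM, and its log2 fold change was -0.90 in experiment 1 and -0.55 in experiment 2. The part of Cstf2 reads in the Nox1 values was not tested. Epithelial markers, the list for a cell type known for Nox1, summed to at most 0.325 CPM in any library, and Krt8 had no read in any of them. The smooth muscle markers summed to 18.1 and 23.3 CPM in KO of experiment 1, where Nox1 was lowest, and to between 2.09 and 9.40 CPM in the other 6 libraries.

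The organizer and activator that pair with NOX1 were scarce. Noxo1, the organizer, spans chr17:24696234-24700529 on the plus strand and had only 26 to 89 reads in a library. In experiment 1 it had 0.639 and 0.792 CPM in WT and 2.27 and 2.22 CPM in KO, so both KO libraries lay above both WT libraries. In experiment 2 it had 1.40 and 0.949 CPM in WT and 1.54 and 0.959 CPM in KO, and the groups overlapped. Noxo1 was thus 3.12-fold higher in KO in experiment 1 (edgeR, log2 fold change 1.64, SE 0.24, adjusted p = 0.0006806), and its log2 fold change in experiment 2 was 0.09 (SE 0.39, adjusted p = 0.8962). The effects differed by -1.57 on the log2 scale (SE 0.45, adjusted p = 0.02793), a call that was lost when any of WT 1, WT 2, WT 3, KO 5, KO 6 or KO 8 was left out (adjusted p between 0.05968 and 0.1039). Noxo1 shares up to 933 bases of exon with Tbl3 on the opposite strand. Tbl3 had 30.5 to 43.4 CPM, with a log2 fold change of -0.38 in experiment 1 and of -0.15 in experiment 2. The part of Tbl3 reads in the Noxo1 values was not tested. The rise of Noxo1 went with the high fibroblast markers of KO 5 and KO 6, whose part in it was not tested.

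Noxa1, the activator, spans chr2:25085667-25095149 on the minus strand and overlaps exons of Entpd8 on the opposite strand by up to 50 bases. It had 2 reads in WT 2, 2 in KO 7, 3 in KO 8 and 0 in the other 5 libraries. All of these are at or under 3 counts, which correspond to between 0.0719 and 0.0880 CPM, so no fold was computed and a difference was not detectable at this depth. This floor covers counting error only.

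Cybb, the catalytic subunit of the phagocyte enzyme, spans chrX:9435252-9487771 on the minus strand. In experiment 1 it had 1242 and 787 CPM in WT and 841 and 686 CPM in KO, so the groups overlapped. In experiment 2 it had 2629 and 2077 CPM in WT and 923 and 515 CPM in KO, and here both KO libraries were below both WT libraries. The 2 WT groups were themselves unlike, with WT of experiment 2 at 2.32 times the mean of WT of experiment 1, while the KO means stood at a ratio of 0.942. Cybb was 3.27-fold lower in KO in experiment 2 (edgeR, log2 fold change -1.71, SE 0.32, adjusted p = 0.03035), and the call was lost without WT 3 (adjusted p = 0.1121), WT 4 (0.0546) or KO 8 (0.08545). Its log2 fold change in experiment 1 was -0.42 (SE 0.28, adjusted p = 0.2928), and it hung on the WT library kept, at -0.71 (adjusted p = 0.006933) without WT 2 and -0.0521 (adjusted p = 0.7788) without WT 1. The difference between the experiments was -1.30 (SE 0.44, adjusted p = 0.04833) and missed the threshold with limma-voom (adjusted p = 0.05149) and without any of WT 2, WT 3, WT 4, KO 5, KO 6 or KO 8 (adjusted p between 0.07536 and 0.1683).

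Cyba encodes p22phox, which both enzymes need, and spans chr8:122424776-122432930 on the minus strand. It had 415 and 380 CPM in WT and 321 and 336 CPM in KO of experiment 1, without overlap. Its levels in experiment 2 were 461 and 456 CPM in WT and 390 and 414 CPM in KO. The differences were small, with a log2 fold change of -0.29 in experiment 1 (SE 0.07, edgeR adjusted p = 0.007824), which missed the threshold without WT 1 (adjusted p = 0.05248), and of -0.19 in experiment 2 (SE 0.13, adjusted p = 0.3395). The interaction term was 0.08 (adjusted p = 0.6141).

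**Figure D2:**
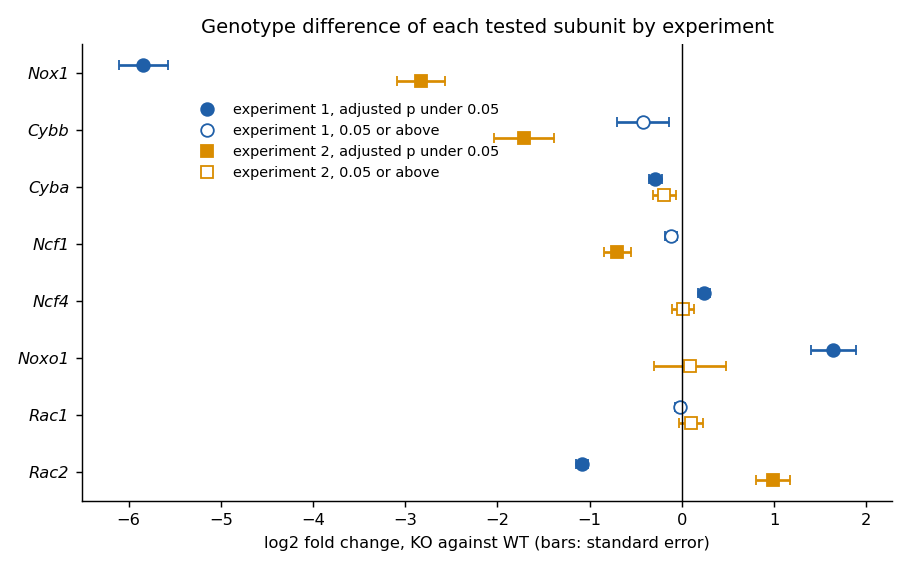
Log2 fold change of KO against WT (horizontal axis) for the 8 tested members in experiment 1 (blue circles) and experiment 2 (orange squares), with standard errors as bars. Filled symbols are past an adjusted p of 0.05 by edgeR. Nox1 lies to the left in both experiments at -5.84 and -2.83, and Rac2 lies on opposite sides of 0 at -1.08 and 0.99.

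Ncf1 encodes p47phox, the organizer that brings the cytosolic complex to the membrane once it is phosphorylated, and spans chr5:134220053-134229625 on the minus strand. Its exons overlap those of Gtf2ird2 on the opposite strand by up to 222 bases, and Gtf2ird2 had 8.71 to 13.5 CPM. It had 647 and 603 CPM in WT and 581 and 583 CPM in KO of experiment 1. Experiment 2 gave 891 and 772 CPM in WT and 523 and 502 CPM in KO. All 4 KO libraries were below all 4 WT libraries, which among the members held for Ncf1 and Nox1 and among all tested genes for 6.25%. The log2 fold change was -0.12 in experiment 1 (SE 0.07, edgeR adjusted p = 0.1715) and -0.70 in experiment 2 (SE 0.15, adjusted p = 0.03576), where it was 1.62-fold lower in KO. Leaving out any of the 4 libraries of experiment 2 lost that call, with adjusted p between 0.0668 and 0.1481. The effects differed by -0.60 (SE 0.14, adjusted p = 0.01403), which was lost without WT 2, KO 5 or KO 6 (adjusted p between 0.05542 and 0.06786).

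Ncf4 encodes p40phox, a cytosolic subunit that binds phosphoinositide on the phagosome, and spans chr15:78244801-78262580 on the plus strand. It was higher in KO of experiment 1, with 207 and 212 CPM against 184 and 167 CPM in WT (log2 fold change 0.24, SE 0.07, edgeR adjusted p = 0.0144), and this call was lost without WT 2 (adjusted p = 0.08675). In experiment 2 it had 257 and 240 CPM in WT and 244 and 257 CPM in KO, which overlapped (log2 fold change 0.01, adjusted p = 0.9609). Ncf1 and Ncf4 thus did not move together, and the ratio of Ncf1 to Ncf4, each in CPM per kb of exon, was 1.77 to 1.99 in the WT libraries, 1.55 and 1.52 in KO of experiment 1, and 1.18 and 1.08 in KO of experiment 2.

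Rac2, the Rac GTPase of blood cells, had the smallest adjusted p of the members for the edgeR interaction term. The term was larger in size for Nox1, at 3.00. Rac2 spans chr15:78559167-78572783 on the minus strand. Its level was 704 and 747 CPM in WT and 341 and 350 CPM in KO of experiment 1. The order was the opposite in experiment 2, with 438 and 359 CPM in WT and 707 and 875 CPM in KO. Neither experiment had overlapping groups, while WT of experiment 1 overlapped KO of experiment 2, and KO of experiment 1 lay just below WT of experiment 2. Rac2 was 2.12-fold lower in KO in experiment 1 (edgeR, log2 fold change -1.08, SE 0.07, adjusted p = 8.008e-06) and 1.99-fold higher in experiment 2 (0.99, SE 0.18, adjusted p = 0.02722), although leaving out any of the 4 libraries of experiment 2 put the latter above the threshold (adjusted p between 0.05465 and 0.1128). The interaction term was 2.06 (SE 0.20, adjusted p = 0.0004543) and passed under every alternative tried. Among all tested genes 6.34% were past the threshold in both experiments with opposite signs, and among the members Rac2 was the only such gene.

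Rac1, the GTPase that most cell types express, spans chr5:143503634-143528036 on the minus strand. Its 8 values lay between 257 and 300 CPM, and WT and KO overlapped in both experiments. The log2 fold change was -0.02 in experiment 1 (SE 0.06, edgeR adjusted p = 0.7678) and 0.10 in experiment 2 (SE 0.13, adjusted p = 0.6148), with an interaction term of 0.11 (adjusted p = 0.4965). Rac1 shares up to 2309 bases of exon with Daglb on the opposite strand, and Daglb had 45.5 to 136 CPM and was higher in KO in both experiments (log2 fold change 0.22, edgeR adjusted p = 0.01869, and 0.92, adjusted p = 0.0402). The part of Daglb reads in the Rac1 values was not tested. The ratio of Rac2 to Rac1 per kb of exon was 3.66 and 3.90 in WT and 1.78 and 1.85 in KO of experiment 1, and 2.34 and 2.02 in WT and 3.84 and 4.22 in KO of experiment 2.

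**Figure D3:**
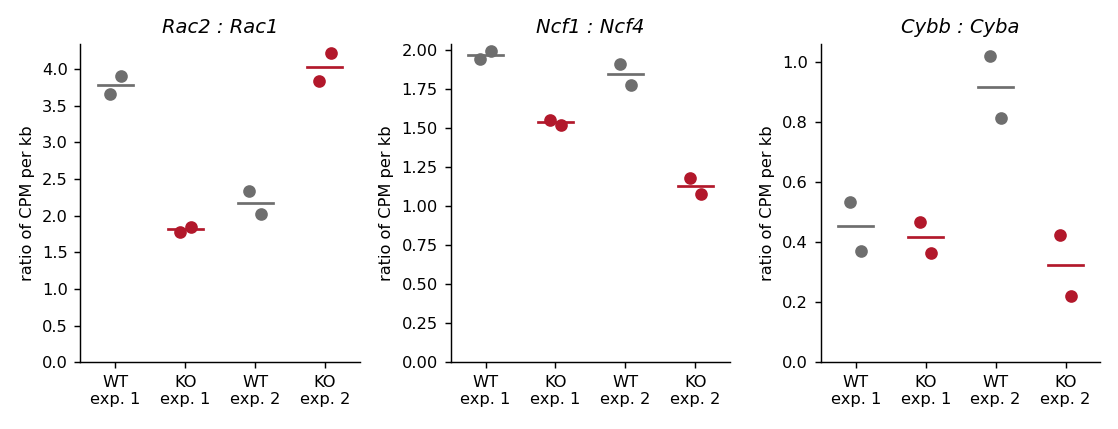
Ratios of CPM per kb of exon (vertical axes, starting at 0) of Rac2 to Rac1, Ncf1 to Ncf4 and Cybb to Cyba in each library, with WT in grey, KO in red and lines at the means of 2. The Rac2 to Rac1 ratio was lower in KO in experiment 1 and higher in KO in experiment 2, and the Ncf1 to Ncf4 ratio was at most 1.55 in KO and at least 1.77 in WT. How many other pairs of genes separate WT from KO in this way was not counted.

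Ncf4 and Rac2 lie on chromosome 15, as does Mkl1 at chr15:81012281-81190757. Ncf4 is 2.75 Mb and Rac2 2.44 Mb from it. An effect of the targeted gene and of other alleles carried along on this stretch cannot be told apart in these libraries.

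Counted over the 8 tested members, 3 were lower and 2 higher in KO in experiment 1, beside 28.1% of all tested genes called lower and 27% called higher. In experiment 2, 3 were lower and 1 higher, beside 8.29% and 7.52%. The genotype effect differed between the experiments for 5 of 8 members, Nox1, Cybb, Ncf1, Noxo1 and Rac2, beside 41.6% of all genes. With the experiment as an additive term over all 8 libraries, Nox1 alone was lower (log2 fold change -4.23, SE 0.68, edgeR adjusted p = 0.01772) and no member was higher, beside 3.41% and 3.72% of all genes. At an unadjusted p under 0.05, 4 members were lower and 0 higher, and DESeq2 called 4 lower and 0 higher, limma-voom 1 and 0. The call for Nox1 was lost without KO 5 (adjusted p = 0.06074) or KO 6 (0.05659). The median log2 fold change of the members was -0.20 in experiment 1 and -0.09 in experiment 2, against 0.01 over all tested genes in each.

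Levels of different subunits were compared per kb of exon. By group mean, Cyba was highest in all 4 groups, between 316 and 441 CPM per kb, and Rac1, Nox1, Noxo1 and Noxa1 filled the last 4 places. Nox1 ranked the seventh in 3 groups, with 17.0 ± 4.20 CPM per kb in WT of experiment 1, 14.2 ± 2.20 in WT of experiment 2 and 2.00 ± 0.609 in KO of experiment 2 (SD, n = 2 each). In KO of experiment 1 it had 0.298 ± 0.0279 CPM per kb (SD, n = 2), below Noxo1 at 0.746 ± 0.0110. The middle places changed between groups, since Cybb was the second in WT of experiment 2 at 405 ± 67.2 CPM per kb and the fifth in KO of experiment 2 at 124 ± 49.7 (SD, n = 2). Neighbours that did not differ beyond their SD were Cyba and Cybb in WT of experiment 2, Cybb and Ncf1 in WT of experiment 1, Rac2 and Ncf4 in WT of experiment 2, and Ncf4 and Cybb in KO of experiment 2. Cybb exceeded Nox1 in every library, by 9.67-fold to 28.7-fold per kb in WT and by 56.6-fold to 521-fold in KO. The ratio of Cybb to Cyba per kb was 0.815 and 1.02 in WT of experiment 2 and between 0.223 and 0.535 in the other 6 libraries.

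**Figure D4:**
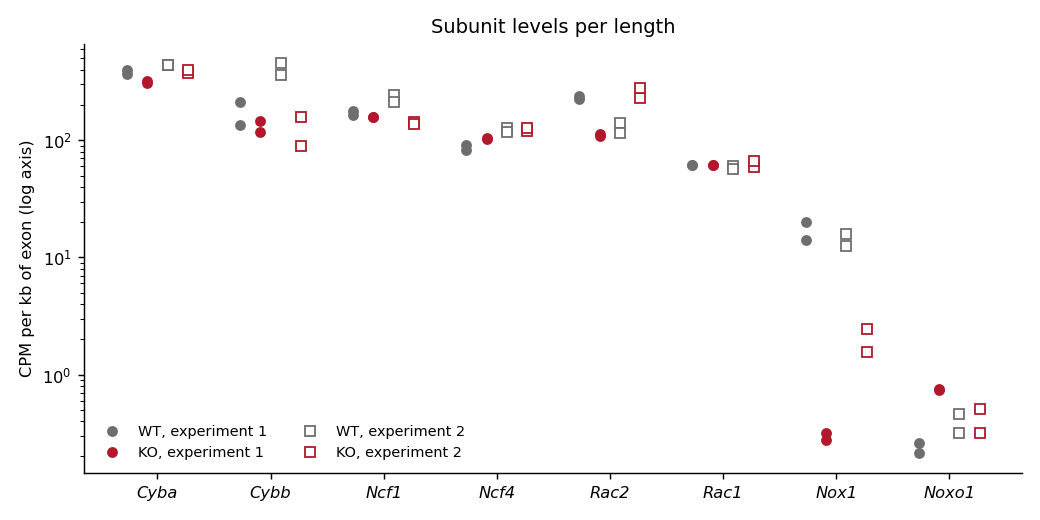
CPM per kb of exon on a log axis for the 8 tested members in each of the 8 libraries, with WT in grey, KO in red, filled circles for experiment 1 and open squares for experiment 2. Cyba lies highest in every library but WT 3, where Cybb is at 453 and Cyba at 444 CPM per kb, Rac1 averages 58.8 to 63.1 CPM per kb in the groups, and Nox1 drops below Noxo1 in KO of experiment 1.

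Genes around the oxidase were counted by list, to be read against the shares of all genes given above. Of 6 tested genes among other subunits and partners, 3 were lower and 2 higher in KO in experiment 1, and none passed the edgeR threshold in experiment 2, where 1 was lower at an unadjusted p under 0.05 and DESeq2 called 1 and limma-voom 0. The median log2 fold change was -0.13 in each experiment. Nrros, which limits gp91phox abundance in phagocytes, had a log2 fold change of 0.42 (adjusted p = 0.000448) in experiment 1, and Poldip2, a p22phox binding protein, had -0.39 (adjusted p = 0.001281). In experiment 2, the genes with the smallest p were Rac3, a GTPase related to Rac1, at -1.28 (adjusted p = 0.1004) and Hvcn1, the voltage-gated proton channel that balances charge during the burst, at -0.47 (adjusted p = 0.1757). Rac3 was higher in KO in experiment 1, at 0.98.

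Of 18 regulators of Rac, 6 were lower and 7 higher in experiment 1, and 2 were lower and 3 higher in experiment 2, with medians of 0.04 and 0.19. DESeq2 called 2 lower and 6 higher in experiment 2. Chn2, a Rac GTPase-activating protein, was higher in KO in experiment 1 (log2 fold change 2.95, SE 0.13, edgeR adjusted p = 2.291e-06) and lower in experiment 2 (-1.47, SE 0.22, adjusted p = 0.01819). Its signs were the reverse of those of Rac2. Vav1, a Rac exchange factor of blood cells, was lower in experiment 1 at -1.15 and had 0.35 in experiment 2 (adjusted p = 0.1636). Arhgap25, another GTPase-activating protein, was higher in both, at 0.67 and 0.77.

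Among 17 tested kinases that act before assembly, 6 were lower and 6 higher in experiment 1, and 2 were lower and 1 higher in experiment 2, with medians of -0.03 and -0.07. DESeq2 called 4 lower and 1 higher in experiment 2. Prkcb, a protein kinase C that phosphorylates p47phox, was lower in KO in experiment 1 (log2 fold change -1.69, edgeR adjusted p = 1.208e-06) and higher in experiment 2 (1.596, adjusted p = 0.02681), the same signs as Rac2. Prkcd, a protein kinase C of the same function, was higher at 0.26 in experiment 1 and lower at -0.92 in experiment 2. Pik3r5, a subunit of phosphoinositide 3-kinase gamma, was lower in experiment 1 at -1.16 and had -0.40 in experiment 2 (adjusted p = 0.1018). Syk, the kinase behind Fc receptors, was lower in both experiments at -1.19 and -0.72. It was named after its values were seen, as were Spi1, Irf8, Srf and Sod3 below.

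For 11 tested transcription factors of oxidase genes, 4 were lower and 5 higher in experiment 1, and 5 were lower and 2 higher in experiment 2, with medians of 0.11 and -0.46. Spi1, which encodes PU.1, the myeloid factor of Cybb and Ncf1, was lower in both (-0.60, edgeR adjusted p = 7.689e-05, and -0.55, adjusted p = 0.03967). Irf1, an interferon-induced activator of Cybb, was higher in experiment 1 at 1.05 and lower in experiment 2 at -3.08 (SE 0.17, adjusted p = 0.003271). WT of experiment 2 stood apart for Irf1, with 404 and 436 CPM against 43.5 to 98.1 CPM in all other libraries. Nfkb1, a subunit of NF-kB, was lower in both at -0.30 and -1.30, and Cebpb, a myeloid activator, was lower in experiment 1 at -1.56 and had -0.0381 in experiment 2 (adjusted p = 0.838), with an interaction term of 1.51 (adjusted p = 0.0002752). Irf8, another partner of PU.1, was higher in both at 0.31 and 0.75. Srf, which encodes serum response factor, was lower in experiment 1 at -0.40 (edgeR adjusted p = 0.00145). It had -0.46 in experiment 2 (adjusted p = 0.07004).

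Of 13 enzymes that handle superoxide, peroxide or NADPH, 6 were lower and 4 higher in experiment 1, and 3 were lower and 0 higher in experiment 2, with medians of -0.13 and -0.40. In experiment 2, 2 were higher at an unadjusted p under 0.05, and DESeq2 called 1 higher and limma-voom 0. Sod2, the mitochondrial superoxide dismutase, was lower in both (log2 fold change -3.07, edgeR adjusted p = 0.0004575, and -1.83, adjusted p = 0.006086). G6pdx, which makes the NADPH that the oxidase uses, was higher in experiment 1 at 0.74 and lower in experiment 2 at -0.68. Txnrd1, thioredoxin reductase, was lower in experiment 1 at -0.86 and had -0.87 in experiment 2 (adjusted p = 0.08057). Sod3, the secreted dismutase, was higher in KO in experiment 1 at 5.02, where the fibroblast markers were also high, and their part in it was not tested.

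**Figure D5:**
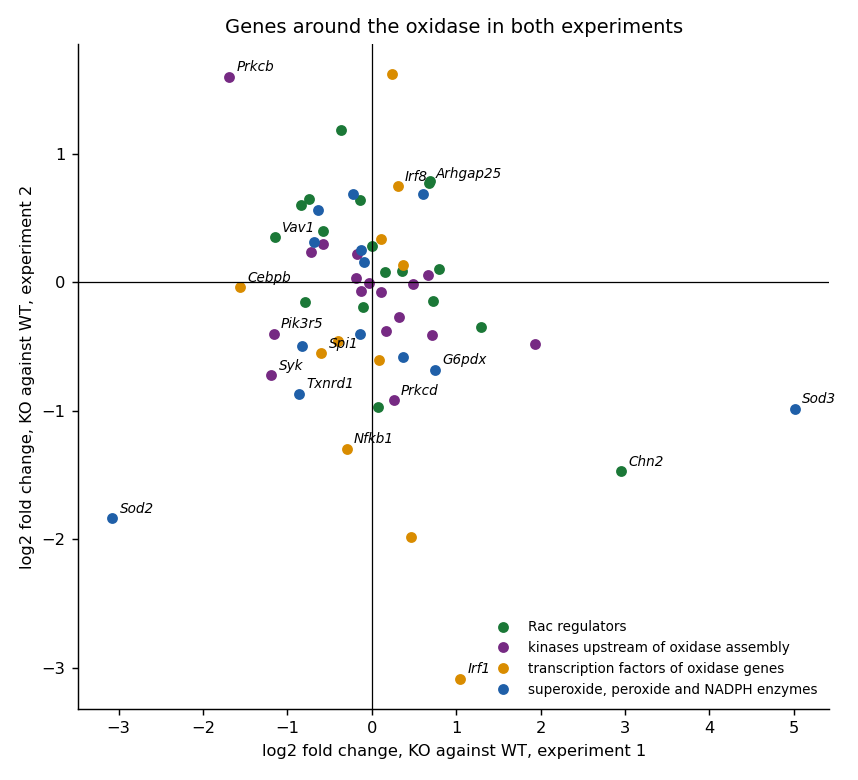
Log2 fold change of KO against WT in experiment 1 (horizontal axis) and experiment 2 (vertical axis) for the tested genes of 4 lists, with 1 point per gene. Prkcb lies at the upper left, Chn2 at the lower right and Sod2 at the lower left.

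Counts in the marker lists are to be read against the same shares of all genes, 28.1% lower and 27% higher in experiment 1 and 8.29% and 7.52% in experiment 2. Of the 10 macrophage markers, 3 were lower and 6 higher in KO in experiment 1, and 2 were lower and 2 higher in experiment 2. Adgre1, which encodes F4/80, was lower in experiment 1 (log2 fold change -2.11, edgeR adjusted p = 6.393e-06) and higher in experiment 2 (0.91, adjusted p = 0.02582). Itgam, the integrin CD11b, had the same signs at -1.03 and 1.34, and Csf1r, the receptor for the macrophage growth factor, had the opposite ones at 0.82 and -1.28. All 7 tested fibroblast markers were higher in experiment 1, with Pdgfra at 6.61 and Col1a1 at 5.55, and none passed in experiment 2, where Postn had -2.17 (adjusted p = 0.1002), 1 was lower at an unadjusted p under 0.05, and DESeq2 called 1 and limma-voom 0. Both tested smooth muscle markers, Tagln and Acta2, were higher in experiment 1 and lower in experiment 2. S100a8, a neutrophil marker, was lower in experiment 1 at -2.24 and had 1.52 in experiment 2 (adjusted p = 0.1701), with an interaction term of 3.75 (adjusted p = 0.007311). Mmp8, the other tested neutrophil marker, had 0.17 and -0.73 (adjusted p = 0.4047 and 0.5078). The single tested dendritic cell marker, Zbtb46, had -0.24 and -0.42, and no epithelial or lymphocyte marker had enough reads to be tested. The part of these marker values in the oxidase values was not tested.

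Patterns most like those of the catalytic subunits were sought among 9071 tested genes by Pearson correlation of log2 CPM over the 8 libraries, which share genotype and experiment. Nearest to Nox1 were Cdc25a (r = 0.997), Ptpn11 (0.996), Psmc1 (0.989), St18 (0.987) and Otud6b (0.985). Cdc25a, a cell cycle phosphatase, had 36.2 to 39.3 CPM in WT and 22.5 to 30.5 CPM in KO. Ptpn11, which encodes the phosphatase SHP2, had 146 to 149 CPM in WT and 115 to 132 CPM in KO. In both genes, as in Nox1, KO of experiment 1 was lowest and KO of experiment 2 lay between it and WT, over a narrower range. Nearest to Cybb were Chid1 (r = 0.984), Cxcl16 (0.980), Tgm2 (0.977), Dram1 (0.976) and Traf1 (0.975). Cxcl16, a chemokine that also binds oxidized lipoprotein, had 480 and 407 CPM in WT of experiment 2 and 108 to 271 CPM in the other 6 libraries. Tgm2, a transglutaminase, had 424 and 347 CPM in WT of experiment 2 and 176 to 260 CPM elsewhere.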

How the data were processed

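RNA-seq of BMDMs was measured in 8 libraries, 2 WT and 2 KO in each of 2 experiments, grouped by their labels. The authors deposited raw counts of reads per gene, made with STAR 2.7.0f and featureCounts of Subread 1.6.4 on GRCm38 per the submitters' processing notes, which also name DESeq2 1.22.1. The libraries came from a stranded mRNA kit, and the strand setting of the counting is not given in the sources used here. The deposited normalized counts were not used, because they were scaled within each experiment.

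Counts were joined by gene, filtered with filterByExpr by genotype (14418 of 53735 genes, with 99.88 to 99.95% of each library) and scaled by TMM. KO was compared with WT within each experiment on its own 4 libraries, since the submitters compared each batch apart, and over all 8 with experiment as a term or with its interaction with genotype. Tests were edgeR 4.0.16 quasi-likelihood F tests in R 4.3.3, with Benjamini-Hochberg adjustment over all tested genes and a threshold of 0.05. Standard errors (SE) were obtained from each log2 fold change and its F value, as |log2 fold change|/√F. Adjusted p-values in the text come from this model. Total counts of 33977799 to 41584540 per library set the counting precision, and 3 counts were taken as the floor. No library was a copy of its replicate, since counts of replicates gave a chi-square of 12.5 to 81.9 per gene.

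Alternatives were DESeq2 1.42.0, limma-voom (limma 3.58.1), upper-quartile scaling, other filters on low counts, an adjusted p under 0.01, each library left out, contrasts in a fit of 4 groups, and no experiment term. The fits were tested on simulated data. Coordinates, exon lengths and overlaps come from GENCODE M21, where Mkl1 is named Mrtfa, and level per length is CPM per kb of merged exons. Named genes were the members, Mkl1, from each list the 2 genes of smallest p in each experiment, and the 5 genes most correlated with Nox1 and with Cybb at a mean log2 CPM of at least 3 (prior count 2). Overlapping genes, markers named for their level in the opening and the genes marked as such in the text were added after values were seen. The members and lists were chosen with earlier results of these data known. Figures were drawn with matplotlib 3.10.9.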

Additional observations from a re-analysis of the deposited data

Results flagged for a closer look

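The genotype effect differed between the experiments, by edgeR's interaction term (experiment 2 minus experiment 1, with Benjamini-Hochberg adjustment over all tested genes), for 5 members. On the log2 scale the difference was 3.00 for Nox1 (adjusted p = 0.001225), 2.06 for Rac2 (adjusted p = 0.0004543), -1.30 for Cybb (adjusted p = 0.04833), -1.57 for Noxo1 (adjusted p = 0.02793) and -0.60 for Ncf1 (adjusted p = 0.01403). Of all tested genes, 41.6% had such a difference.

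Among the 4 WT libraries, WT 2 stood apart for Noxa1, at 0.0587 CPM while the other 3 had none. This value is 2 reads, under the floor of 3 counts. For normally spread values such a sample is found by chance in about 1 of 20 groups, and 20 groups were checked. A group with reads in 1 library only always stands apart in this way, so that rate does not hold here.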

How the results depend on the processing

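No paired analysis was possible because WT and KO libraries share no replicate number. Of 408 results for single members under another setting, 351 kept their direction and their side of the threshold, 41 lost the call, 4 gained it and 12 turned sign, none of them past the threshold. Nox1 was called under all 11 alternatives in each experiment and all 14 of the interaction, and Rac2 under all 11 in experiment 1 and all 14 of the interaction. Over both experiments, Nox1 was not called in 5 of 15 (adjusted p = 0.0594 without the filter, 0.143 without the experiment term, 0.06074 without KO 5, 0.05659 without KO 6, and at a threshold of 0.01).

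With a threshold of 0.01, 1 member was higher in experiment 1. In experiment 2 at that threshold 1 member was lower, 0 were higher and 234 genes in all were called, and a contrast within the 4-group fit called 4899 genes. The interaction at 0.01 held for 2 members and 3247 genes. Over both experiments DESeq2 called 4 members lower and 2492 genes. Without the filter, at 0.01 or without the experiment term 0 members were lower, with 208 genes called at 0.01 and 4 without the experiment term.

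With each library left out in turn, 1 to 2 members were higher in experiment 1, 1 to 2 were lower and 0 higher in experiment 2 with 232 to 1388 genes called, 2 to 5 members and 3935 to 6508 genes had an interaction, and 0 to 1 members and 243 to 1100 genes were called over both experiments. Upper-quartile scaling gave Rac1 0.0788 in experiment 1 and Rac2 0.0312 over both experiments, where Rac2 had 0.0163 without the experiment term and -0.38 to 0.27 with a library left out, and Rac1 ranged from -6.495e-05 without KO 8 to 0.0756. In experiment 2 Ncf4 ranged from -0.0376 to 0.0581 and was below 0 without WT 4 or KO 8, and Noxo1 ranged from -0.29 to 0.39 and was below 0 without WT 4 or KO 7. The causes were not tested. Depth limits Noxo1, with 26 to 89 reads, and Noxa1, with at most 3.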
